A study of Mus musculus with 4 samples.

Results

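The peaks described here are those that the authors' deposited table places in 5' UTRs, the untranslated stretch of an mRNA between its cap and its start codon. All rows with the class utr5 were taken, 2120 of 33977 peaks (6.24%), in 1432 of 10415 genes. The table comes from an immunoprecipitation assay (MeRIP-seq) that sequences the RNA pieces captured by an antibody against N6-methyladenosine (m6A), a methyl group on adenosines inside RNA. The 4 libraries come from mouse cortex, 2 from animals given repeated mild injuries of the brain (rmTBI, repetitive mild traumatic brain injury) and 2 from sham animals, and the labels number each set 0 and 1. In both groups total RNA was extracted with TRIzol and precipitated with an anti-m6A antibody from Synaptic Systems, per the labels. How the injury was given, how long before sampling, the strain, the age and how many mice went into a library are not stated in the sources used here. Nothing says that the libraries numbered 0 and 1 came from separate mice, so the p-values speak for the spread among these 4 libraries alone, and that spread may be technical. No library without the antibody and no METTL3 inhibitor experiment was analysed here.

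m6A is written on nascent RNA by a complex around the methyltransferases METTL3 and METTL14, is removed by FTO and ALKBH5, and is read by proteins such as the YTH family. It is densest around stop codons and in 3' UTRs, while marks in 5' UTRs are less common and have been tied to initiation that does not need the cap-binding factor eIF4E, through direct binding of the initiation factor eIF3. Antibodies against m6A also bind m6Am, a related mark on the first transcribed base, set by PCIF1 when that base is an adenosine, so a peak at the very start of a transcript can hold either mark.

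The windows printed next show what the antibody could have met at the gene start for genes that the comparisons turn on. Of 53 named genes searched, 6 held the letters GGAC, the core of the best-known m6A motif, within the 50 bases after the RefSeq start and under a 5' UTR peak, and the 4 whose peak spans at most 1000 bases are shown with every GGAC in capitals (Syncrip holds 2). Each is 30 bases long, 5' to 3' on the strand of the gene, from RefSeq with the build GRCm38.p6. The Gpr137 window lies at chr19:6941161-6941190 on the minus strand, the Fnbp1l window at chr3:122619685-122619714 on the minus strand, the Syncrip window at chr9:88482368-88482397 on the minus strand and the Tsc22d1 window at chr14:76415832-76415861 on the plus strand.
Gpr137: caaccaaggccagGGACtctgtgccactgc
Fnbp1l: ggGGACgcggcggcggctcgcttcagtcgt
Syncrip: gaaggaaGGACgaaggctgagaGGACaggg
Tsc22d1: agtgaatggcgaaGGACtgaaggggtcccc

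For 3 genes with lower counts in rmTBI, the first 30 bases of the gene are shown because their peaks cover the start itself, with the first base in capitals. These 3 were chosen after their values were seen. Ntng1 starts at the end of chr3:110143443-110143472, Car14 at the end of chr3:95904656-95904685 and Tmem88b at the end of chr4:155785845-155785874, all on the minus strand.
Ntng1: Gaaattgcttcgagaggatcttcttggcgc
Car14: Accggtttcgagccaccttaaaagcgggag
Tmem88b: Acataggcgctgcctgcctttgcctggtaa

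Of the 2120 peaks, 980 belonged to the set called in rmTBI (6.11% of its 16034 peaks) and 1140 to the set called in sham (6.35% of its 17943 peaks). In the rmTBI set 482 of the 5' UTR peaks (49.2%) overlapped a 5' UTR peak of the sham set by at least 1 base on the same strand, and in the sham set 482 (42.3%) overlapped one of the rmTBI set. Peaks found in both sets held more reads. The median of a peak's mean count over the 4 libraries was 177 for the overlapping peaks of the rmTBI set and 63.9 for its other peaks, and it was 172 and 76.1 for those of the sham set. Overlapping rows share reads, and the 2120 rows form 1625 overlap clusters. Most genes with a 5' UTR peak also had one elsewhere: 1111 held a peak in coding sequence or the 3' UTR, and 321 had 5' UTR peaks alone. Thtpa, thiamine triphosphatase, held the most, with 11.

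The peaks were short or very long. The median span was 241 bases, while the 10th and 90th percentiles were 121 and 10798 bases and the longest, at Grip1, covered 365268 bases. The deposited table gives only the outer start and end, so a long span includes introns that may hold no signal. Spans over 1000 bases made up 20.5% of the 5' UTR peaks, against 36.0% of coding peaks and 10.1% of 3' UTR peaks. These 434 long rows held 68.6% and 60.6% of the 5' UTR counts in rmTBI libraries 0 and 1, and 67.6% and 59.6% in sham libraries 0 and 1.

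Position was set against the RefSeq starts of GRCm38.p6, the build whose gene positions the deposited coordinates follow. A start on the row's chromosome was found for 1670 peaks, and 127 of these (7.60%), in 87 genes, carried the strand opposite to their own gene. Among pairs of rows on opposite strands that overlapped by at least 90% of the longer one and included a 5' UTR row, all 21 carried the same gene name on both rows, and all 21 had summed counts within a ratio of 0.8 of each other (median ratio 0.999). Reads were therefore counted without regard to strand at these pairs, and a gene and an antisense partner cannot be told apart.

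Of the 1543 peaks on the strand of their gene, 678 (43.9%) covered the start, 698 began downstream of it by a median of 200 bases, and 167 ended upstream. Among the 1212 of these that span at most 1000 bases, 512 (42.2%) covered the start and a further 131 began within the first 50 bases, while 45 ended over 1000 bases upstream and 94 began over 1000 bases downstream. Of 460 that covered all of the first 50 bases, 113 began exactly at the start and 240 within 10 bases of it.

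**Figure D1:**
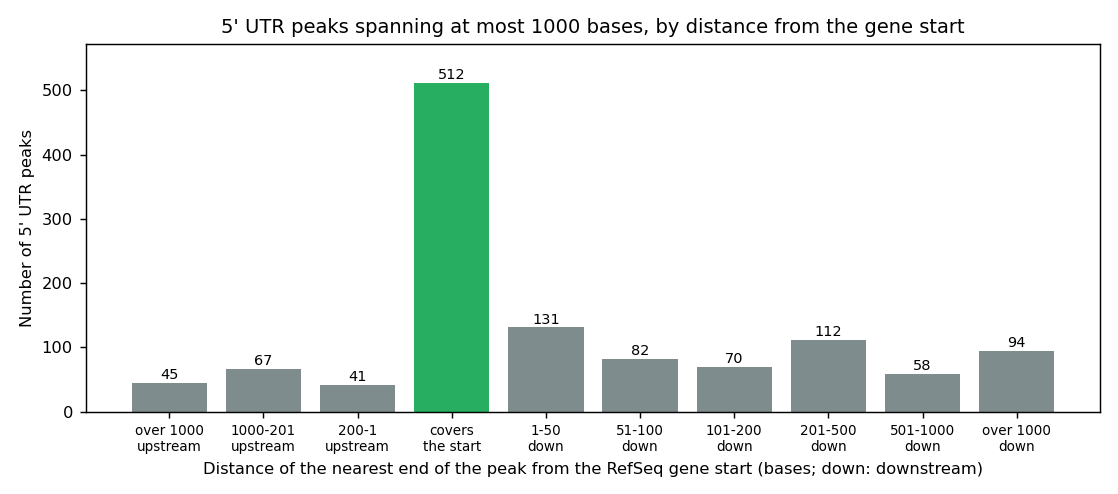
Bars give the number of 5' UTR peaks with a span of at most 1000 bases (y axis) by the distance in bases between the RefSeq gene start and the nearest end of the peak (x axis), with upstream to the left. The green bar, 512 of 1212 peaks, holds the peaks that cover the start, and the next bar holds 131 that begin 1 to 50 bases downstream.

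At the 376 distinct starts covered by these peaks, the first 50 bases on the strand of the gene were searched for GGAC, GGACT and AGACT. GGAC, which also counts every GGACT, was present at 22.6% of them, against 18.9% of all 32851 RefSeq starts and 19.97% of the 21262 protein-coding ones. GGACT stood at 7.45%, 5.76% and 5.87% of the same sets and AGACT at 3.99%, 5.14% and 4.76%. The first base was A at 34.0% of the covered starts, against 34.4% of all and 37.4% of protein-coding starts. A C followed by 4 pyrimidines, the start of transcripts with a 5' terminal oligopyrimidine tract, stood at 2.13%, 2.51% and 2.21%. The covered windows were richer in G and C, with 64.8% against 56.7% and 60.1%. These shares are descriptions of letters, with no test.

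The depth behind each peak differed more between the numbers than between the groups. Counts over all peaks came to 13753600 and 26888072 in rmTBI libraries 0 and 1, and 14437317 and 26356562 in sham libraries 0 and 1. A 5' UTR peak had a median of 71 and 141.5 counts in the rmTBI libraries, and 75 and 140 in the sham libraries. Under 10 counts were found at 223 and 30 of the 5' UTR peaks in the rmTBI libraries and at 201 and 27 in the sham libraries.

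Whether the 5' UTR as a whole gained or lost signal after injury was asked from its share of all peak counts. It took 4.91% and 4.43% in rmTBI libraries 0 and 1, against 4.77% and 4.24% in sham libraries 0 and 1. The groups overlapped. The means differed by 0.170 percentage points (two-sided exact permutation p = 0.667; with 2 libraries against 2 the smallest possible is 0.333). The difference turned to -0.070 points without rmTBI library 0 and to -0.094 points without sham library 1, and it was 0.410 without rmTBI library 1 and 0.434 without sham library 0. Between libraries of the same number, 1 per group, rmTBI was higher by 0.194 points at number 1 and by 0.146 points at number 0. Over spans of at most 1000 bases the shares were 1.54% and 1.75% in rmTBI and 1.54% and 1.71% in sham.

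At single peaks, no 5' UTR peak passed the test between rmTBI and sham in a fit with no term for library number. That outcome depends on the fit, and the calls with number as a block are given with the processing alternatives at the end. A handful of genes led in each direction. Mef2c, a MADS-box transcription factor of neurons, and Ccdc80, a secreted matrix protein, had the smallest p among peaks with more reads in rmTBI. Ntng1, the synaptic adhesion protein netrin G1, Prox1, a homeobox factor, Agt, the precursor of angiotensin, and Zic1, a zinc finger factor, had the smallest among those with fewer. Log2 fold changes ran from 1.33 at Mef2c to -1.87 at Prox1 among these 6. These genes were taken from peaks at which both rmTBI libraries lay on 1 side of both sham libraries, so the lack of overlap at them is part of the choice.

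Of 2078 peaks that passed the filter on low counts (42 did not), edgeR's quasi-likelihood test with Benjamini-Hochberg adjustment over all 33415 peaks tested called 0 at an adjusted p under 0.05, where 29 of all peaks (0.0868%) were called. The smallest adjusted p of a 5' UTR peak was 0.110. Without adjustment 65 had a p under 0.05, 20 higher and 45 lower in rmTBI, which is 3.13% against 2.84% of all peaks. DESeq2 called 10 of 2023 (0.494%, against 0.423% of all), 2 higher and 8 lower. These 10 lie in 5 genes, Mef2c, Ntng1, Prox1, Agt and Zic1. In all but Agt they include rows of both the rmTBI and the sham set, which share reads where they overlap. With a library left out edgeR did call some 5' UTR peaks, but 1 group then holds a single library. In these fits the median log2 fold change ran from -0.01 without rmTBI library 0 to 0.03 without sham library 0. Both rmTBI libraries lay above both sham libraries at 295 peaks (14.2%, against 12.3% of all) and below at 272 (13.1%, against 12.3%). The median log2 fold change was 0.03, and 83.4% of the peaks had a size under 0.5. Because every library carries the antibody, a change in how strongly a transcript is methylated and a change in its amount cannot be told apart from counts.

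**Figure D2:**
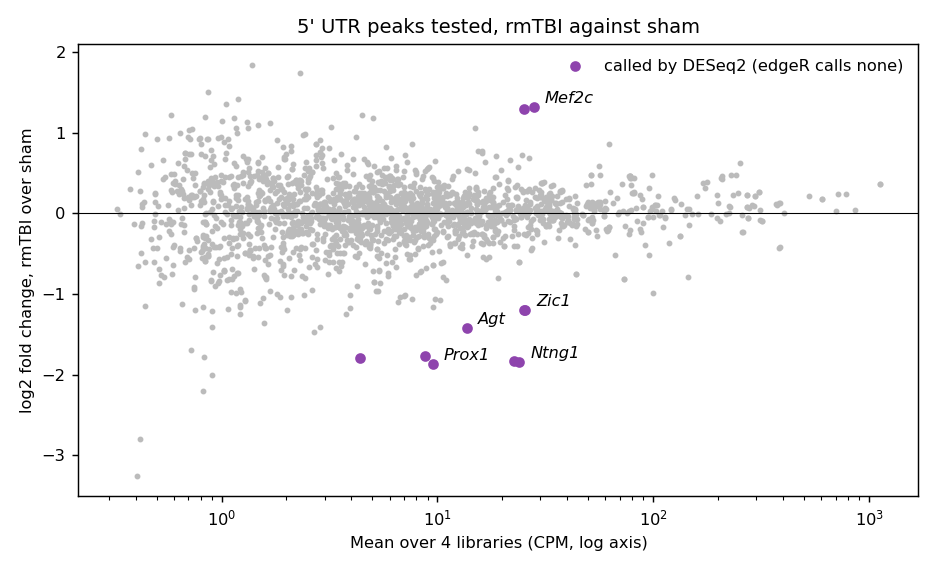
Each point is a tested 5' UTR peak, with its mean level over the 4 libraries in CPM (log axis) on the x axis and its log2 fold change of rmTBI over sham on the y axis. The purple points are the 10 peaks called by DESeq2, at Mef2c above 0 and at Ntng1, Prox1, Agt and Zic1 below, and edgeR called none.

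Levels are given as CPM of the whole peak, its counts scaled to library depth with TMM factors. The Mef2c peak at chr13:83504332-83524714 had 43.9 and 35.9 CPM in rmTBI libraries 0 and 1, against 16.6 and 15.2 CPM in sham libraries 0 and 1. Both rmTBI libraries were higher, without overlap, at a log2 fold change of 1.33 (SE 0.26, edgeR adjusted p = 0.298). Mef2c has 3 further 5' UTR peaks, with log2 values of 0.62 to 1.29. The shortest, of 61 bases, had 19.6 and 21.0 CPM in rmTBI, against 9.41 and 9.99 CPM in sham. Ccdc80 stood at 6.06 and 6.48 CPM in rmTBI, against 2.64 and 2.74 CPM in sham, with no overlap and a log2 difference of 1.22 (SE 0.28, edgeR adjusted p = 0.506).

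Several receptors and neuronal regulators followed on the higher side, none of them called. Epha5, an ephrin receptor of axon guidance, had 21.2 and 19.3 CPM in rmTBI, against 11.9 and 11.8 CPM in sham (log2 0.77). Plxna2, a semaphorin receptor, had 21.8 and 18.7 CPM in rmTBI, against 11.8 and 14.2 CPM in sham (log2 0.63). At these peaks of both genes the 2 rmTBI libraries were the highest. Plxna2 has further 5' UTR peaks, at log2 0.54 and, over 23590 bases, at 0.15. The latter had 74.8 and 51.1 CPM in rmTBI, against 68.7 and 44.55 CPM in sham, and there the groups overlapped. Meis2, a homeobox factor, had 10.6 and 9.25 CPM in rmTBI, against 3.78 and 6.91 CPM in sham (log2 0.87), so that the gap was wider between the libraries numbered 0. Islr, a membrane protein with leucine-rich repeats, had 96.6 and 64.2 CPM in rmTBI, against 51.6 and 36.7 CPM in sham (log2 0.87), over a span of 14250 bases. That row lies upstream of the RefSeq start of Islr, at -31473 bases, and overlaps a row of another class on its strand. Its signal may therefore not come from Islr. The others on this side, with unadjusted edgeR p between 0.00813 and 0.0331, were Chrna10 (a nicotinic receptor subunit), Ndst4 (a heparan sulfate sulfotransferase), Arhgap25 (a GTPase-activating protein), Nav2 (a neuron navigator) and Plekha2. Their lowest library held 0.499 to 4.78 CPM, and for Plekha2, Chrna10 and Ndst4 that is few reads. At the other 5' UTR peaks of Plekha2, with log2 values of 0.45 and 0.44, the groups overlapped.

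Among peaks with fewer reads in rmTBI, the Ntng1 peak at chr3:110143142-110143562 over the gene start shown earlier had 10.01 and 10.9 CPM in rmTBI libraries 0 and 1, against 32.1 and 42.9 CPM in sham libraries 0 and 1. The groups were far apart, with a log2 fold change of -1.85 (SE 0.28, edgeR adjusted p = 0.110). Its counterpart called in the rmTBI set gave 9.63 and 10.1 CPM in rmTBI, against 29.7 and 40.7 CPM in sham. Prox1 had 4.85 and 3.42 CPM in rmTBI, against 16.5 and 13.4 CPM in sham (log2 -1.87, SE 0.30, edgeR adjusted p = 0.151), and all 3 of its 5' UTR peaks lay between -1.77 and -1.87.

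Agt, made in the brain by astrocytes, had 7.28 and 7.63 CPM in rmTBI, against 21.2 and 18.8 CPM in sham (log2 -1.42, SE 0.25, edgeR adjusted p = 0.214). Zic1 had 15.2 and 15.9 CPM in rmTBI, against 35.8 and 35.4 CPM in sham (log2 -1.20, SE 0.25, edgeR adjusted p = 0.349). In both genes the libraries of a group lay close together and the groups did not overlap. Car14, a membrane carbonic anhydrase, had 7.58 and 5.68 CPM in rmTBI, against 13.6 and 14.2 CPM in sham (log2 -1.07). Maob, monoamine oxidase B, had 1.74 and 1.15 CPM in rmTBI, against 3.99 and 3.88 CPM in sham (log2 -1.48). Rxrg, a retinoid X receptor, had 1.14 and 1.91 CPM in rmTBI, against 4.35 and 4.02 CPM in sham (log2 -1.41). Maob and Rxrg are low, and in none of these 3 did an rmTBI library reach a sham library. Arhgap24, Tmem88b, BC049715, Wbscr17 (Galnt17 in RefSeq) and Ccdc146 had log2 values between -1.02 and -1.25 with unadjusted edgeR p between 0.00336 and 0.00795.

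**Figure D3:**
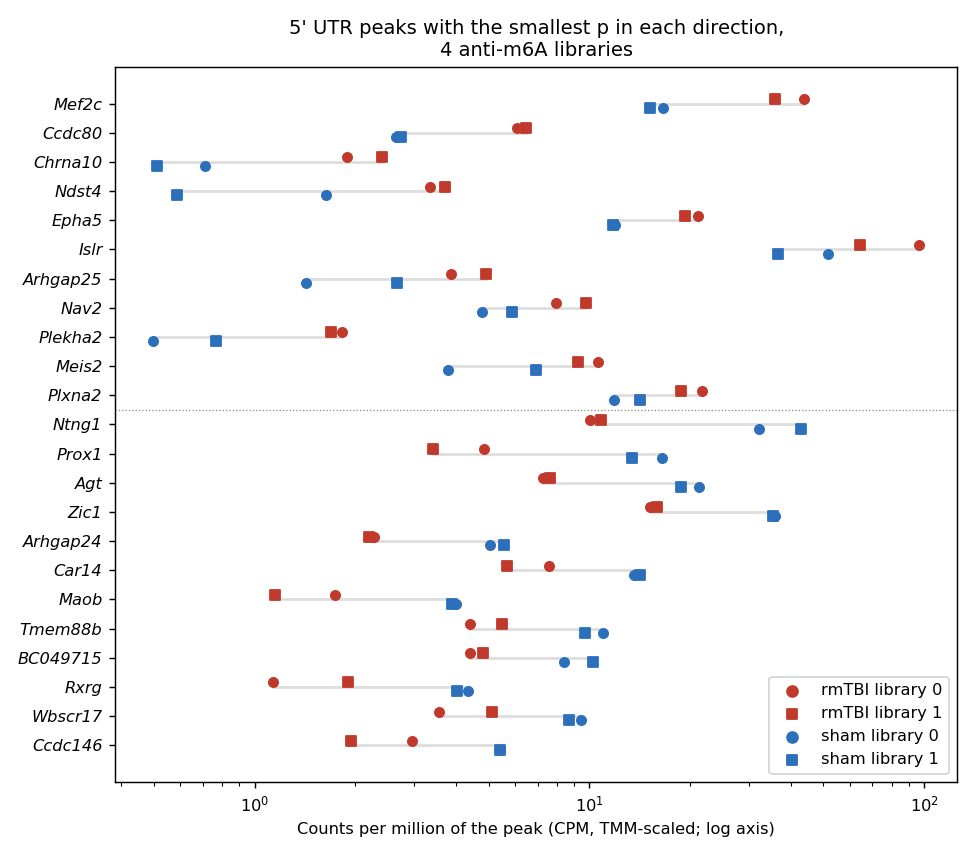
Each row is 1 gene's 5' UTR peak and each symbol 1 library, with CPM on a log axis; red is rmTBI, blue is sham, circles are libraries 0 and squares libraries 1. The genes above the dotted line have both rmTBI libraries to the right of both sham libraries, and those below it have them to the left.

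Some of these genes are markers of cell types or brain regions, so the marker lists are given beside them. Ntng1 is 1 of 14 thalamic neuron markers, and at coding and 3' UTR peaks 12 of the 13 with a row, Ntng1 among them, had a median log2 below 0 (median -2.77). Of this list 21 such peaks were called by edgeR, and of the other marker lists 0, where 29 of all 33415 peaks tested (0.0868%) were called. All marker lists were chosen with earlier results of these data known, so the contrast between them is part of the choice. The summed level of the thalamic markers at such peaks was 392.1 and 447.1 CPM in rmTBI, against 2068 and 2426 CPM in sham. Prkcd had no row here. Of 17 oligodendrocyte and myelin markers 15 lay below 0 (median -0.52, 1480 and 1405 CPM in rmTBI, against 2225 and 2093 CPM in sham), and of 10 striatal ones 8 did (median -0.78, 1377 and 1342 CPM in rmTBI, against 2479 and 2455 CPM in sham). Excitatory neuron markers of the cortex went the other way, with 10 of 12 above 0 (median 0.35, 4207 and 3917 CPM in rmTBI, against 3483 and 3299 CPM in sham). Of 6 choroid plexus and ependyma markers 5 lay below 0 (median -1.94), as did 6 of 7 of blood vessels (median -0.15), while 7 of 9 interneuron markers (median 0.18), 7 of 10 of microglia and macrophages (median 0.26) and 5 of 9 of astrocytes (median 0.07) lay above. The part of these cell types in the 5' UTR values was not tested, and in bulk tissue fewer cells of a type and less RNA per cell cannot be told apart.

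The same markers had few 5' UTR peaks of their own. Ppp1r1b, the striatal signalling protein DARPP-32, had 24.3 and 40.8 CPM in rmTBI, against 37.7 and 72.2 CPM in sham (log2 -0.76), and the groups overlapped. Of 12 excitatory neuron markers of the cortex 6 had a 5' UTR peak, 4 above and 2 below 0 (median 0.16), with Rorb at -0.64. Slc17a7, the vesicular glutamate transporter of cortical excitatory neurons, had 104 and 125 CPM in rmTBI, against 74.8 and 89.8 CPM in sham (log2 0.48). Its groups did not overlap, but its row overlapped a row of another class on the same strand. No microglia or macrophage marker had a tested 5' UTR peak.

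Whether the 5' UTR signal of a gene moved apart from the rest of that gene was asked by testing its 5' UTR counts against its coding and 3' UTR counts in each library. In most of the leading genes both had the same sign. Of the 24, 19 also had coding or 3' UTR peaks, and in 17 these had a median of the same sign. Ntng1 had 9 such peaks with a median log2 of -2.07, of which 2 were called by edgeR, and Prox1 had 5 with a median of -1.74. The exceptions were Nav2 (median -0.19 at 6 peaks) and BC049715 (median 0.44 at 2 peaks with few reads).

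Within Ntng1 the 5' UTR took 14.6% and 12.6% of the gene's peak counts in rmTBI libraries 0 and 1, and 11.3% and 11.7% in sham libraries 0 and 1. Zic1 gave 61.8% and 56.1% in rmTBI, and 59.4% and 55.5% in sham. For Mef2c the shares were 33.8% and 25.4% in rmTBI, and 31.4% and 22.4% in sham, which differ more between the numbers than between the groups. Of the 19 genes, 15 had a difference between 5' UTR and rest of under 0.5 in size on the log2 scale, as did 88.0% of all 1089 genes tested. The other 4 were BC049715 (-1.46), Ccdc146 (0.95), Maob (-0.83) and Nav2 (0.68). At BC049715 the rest held only 6 and 27 counts in rmTBI libraries 0 and 1, and 4 and 21 in sham libraries 0 and 1. Its 5' UTR sum takes in rows on both strands with 591 and 597 counts, which are largely the same reads. At Ccdc146 the rest held 7 and 16 counts in rmTBI, and 31 and 77 in sham.

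**Figure D4:**
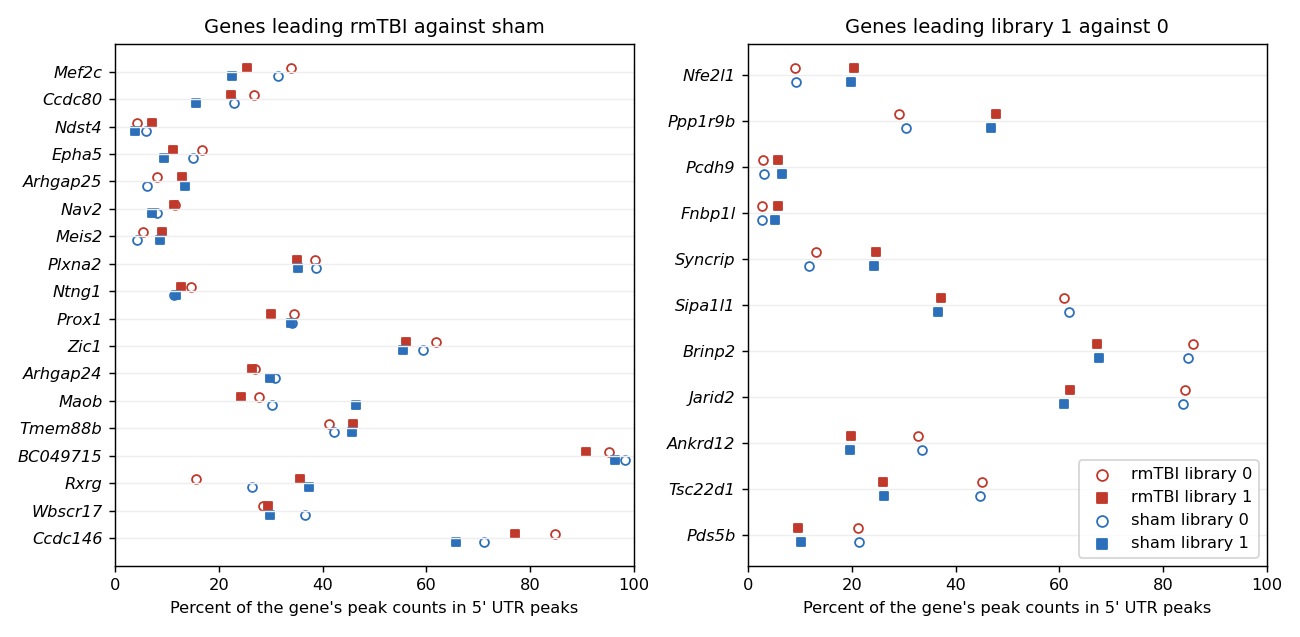
Each row is a gene and each symbol a library (red rmTBI, blue sham, open circles library 0, filled squares library 1), with the percent of the gene's peak counts that lie in 5' UTR peaks on the x axis. On the left, for genes leading rmTBI against sham, red and blue lie close together in most rows, as for Ntng1 at 11.3% to 14.6%; on the right, for genes leading library 1 against 0, symbols pair by number, as for Jarid2 at 62.1% and 60.8% in libraries 1 against 84.2% and 83.9% in libraries 0.

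Over 1089 genes, edgeR's quasi-likelihood test of this difference called 0 (0.0% of all genes tested) at an adjusted p under 0.05. Only 3 had an unadjusted p under 0.05 (0.275%), and the median difference was 0.01. That share is far below the 0.05 to be met when nothing differs. The fit has no term for number, by which 234 genes were called, so that difference widens the spread it tests against. With number as a block, edgeR gave 26 genes an unadjusted p under 0.05, a smallest adjusted p of 0.670 and 0 calls. The 0 calls therefore do not show that the 5' UTR moved together with the rest. Gpr137, a lysosomal membrane protein, led on the higher side, with the 5' UTR holding 92.8% and 96.3% of its counts in rmTBI, against 87.6% and 84.4% in sham (log2 difference 1.55, SE 0.47, edgeR adjusted p = 1). The rest of that gene held only 18 and 14 counts in rmTBI, against 36 and 77 in sham. Pld5 led on the lower side with 3.39% and 3.62% in rmTBI, against 10.3% and 8.39% in sham (log2 difference -1.46, SE 0.39, edgeR adjusted p = 1), from 4 and 11 counts in rmTBI and 22 and 37 in sham. Myo10, an unconventional myosin, had 2.19% and 1.42% in rmTBI, against 3.98% and 3.19% in sham (log2 difference -1.06). Nav2, the neuron navigator among the leading genes, had 11.5% and 11.4% in rmTBI, against 8.02% and 7.02% in sham (log2 difference 0.68, SE 0.27). In all 4 genes the groups did not overlap, and none passed the adjusted test. Of the others named by the same rule, Hs3st5, Tle3, Cers5 and Irf2bp2 had differences of 0.68 to 1.05. Setd1a, Islr2, Spata2l and BC049715 had differences of -0.85 to -1.46, with few reads in the rest of BC049715.

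Gene groups tied to 5' UTR control were read next, by the median log2 fold change of each gene's 5' UTR peaks. Over all 1397 genes tested, 743 (53.2%) lay above 0, with a median of 0.02. No member of any group was called by edgeR's adjusted test, and few members had a 5' UTR peak at all. Among 26 immediate early genes, switched on by neuronal activity, 4 had one, and the gene medians of all 4 lay above 0 (median 0.28). Over their 8 peaks, both rmTBI libraries lay above both sham libraries at 2 and below them at 1. Nr4a1, an orphan nuclear receptor, had 10.1 and 11.8 CPM in rmTBI, against 6.84 and 7.90 CPM in sham (log2 0.57, SE 0.26, edgeR adjusted p = 1) at a peak over its start, with no overlap. The other members were Nr4a3 at 0.36, Homer1 and Fosl2, the last at 0.21. Nr4a3 had 0.910 and 3.13 CPM in rmTBI, against 1.43 and 1.83 CPM in sham. Fosl2 had 5.23 and 7.16 CPM in rmTBI, against 3.92 and 6.77 CPM in sham, and in both genes the groups overlapped.

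Of 18 genes of stress-regulated translation, 2 had a 5' UTR peak. Xbp1, a factor of the unfolded protein response, had 24.03 and 13.5 CPM in rmTBI, against 18.9 and 12.7 CPM in sham (log2 0.25), and Ddit3, known as CHOP, had 19.9 and 10.7 CPM in rmTBI, against 17.7 and 14.7 CPM in sham (log2 -0.09). The groups overlapped in both. Of 22 heat shock and chaperone genes 5 had a peak, 3 above and 2 below 0 (median 0.19), and of 52 genes of the translation machinery 8 did, 5 above and 3 below 0 (median 0.11). Eif4e, the cap-binding factor itself, had 19.6 and 13.8 CPM in rmTBI, against 22.1 and 15.0 CPM in sham (log2 -0.16). Among 25 genes that write, erase or read m6A, only Fto (log2 -0.02) and Hnrnpa2b1 (log2 -0.32) had one.

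Neuronal groups were better covered. Of 40 synaptic genes 11 had a 5' UTR peak, 7 above and 4 below 0 (median 0.14). Gria2, an AMPA receptor subunit, had 83.0 and 78.4 CPM in rmTBI, against 65.2 and 60.3 CPM in sham (log2 0.36, SE 0.23, edgeR adjusted p = 1), without overlap. Of 33 ion channel genes 14 did, 6 above and 8 below 0 (median -0.14), among them Kcnc1, a fast potassium channel, with 25.02 and 20.8 CPM in rmTBI, against 35.9 and 26.9 CPM in sham (log2 -0.45). Of 34 axon guidance genes 14 did, 9 above and 5 below 0 (median 0.10), led by Epha5 and Plxna2. Of 33 chromatin regulators 7 did, 6 above and 1 below 0 (median 0.21), the exception being Setd1a, a histone methyltransferase, at -1.005 with 0.986 and 1.37 CPM in rmTBI, against 2.78 and 2.09 CPM in sham. Of 27 cortical neuron transcription factors 11 did, 5 above and 6 below 0 (median -0.05), with Mef2c at one end and Rorb, a layer marker, at -0.64.

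The clearest pattern in the 5' UTR peaks ran between the library numbers, whose meaning the labels do not give. In levels scaled to depth, libraries 1 were mostly lower at long 5' UTR peaks, such as those of Jarid2, Tsc22d1 and Grip1. They were mostly higher at short peaks, and higher at peaks such as those of Ppp1r9b, Nfe2l1 and Homer1. With number as the term, edgeR's quasi-likelihood test with Benjamini-Hochberg adjustment called 306 of 2078 peaks (14.7%), where 16.4% of all peaks were called. Of these 81 were higher in libraries 1 (3.898%, against 7.17% of all) and 225 lower (10.8%, against 9.25% of all), and all 306 had the same sign within rmTBI and within sham, which a call with 1 library of each group per number all but requires. With a library left out 126 were called without rmTBI library 0, 139 without rmTBI library 1, 166 without sham library 0 and 180 without sham library 1. With scaling by library size alone the split was 111 higher and 176 lower, and the median log2 of the 2078 peaks was 0.14, against 0.04 with TMM.

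Span sorted the peaks. Of 434 over 1000 bases, 13 were called higher and 185 lower in libraries 1 (42.6%), with a median log2 of -0.50, and of 275 over 5000 bases 6 were called higher and 165 lower (60%), with a median of -0.63. Of 1644 spanning at most 1000 bases, 68 were called higher and 40 lower, with a median of 0.13. In coding sequence 29.3% of the spans over 1000 bases were called lower and 3.28% higher (median -0.33), and in the 3' UTR 12.8% lower and 13.7% higher (median -0.04). Between 1001 and 5000 bases the median was -0.11 at 159 5' UTR peaks, against -0.25 at 3367 coding peaks. The difference between classes was not tested. By span, the median log2 ratio of library 1 to library 0 at 5' UTR peaks was 0.06 in rmTBI and 0.07 in sham up to 150 bases, 0.19 and 0.20 at 251 to 500 bases, and -0.76 in both groups over 20000 bases.

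**Figure D5:**
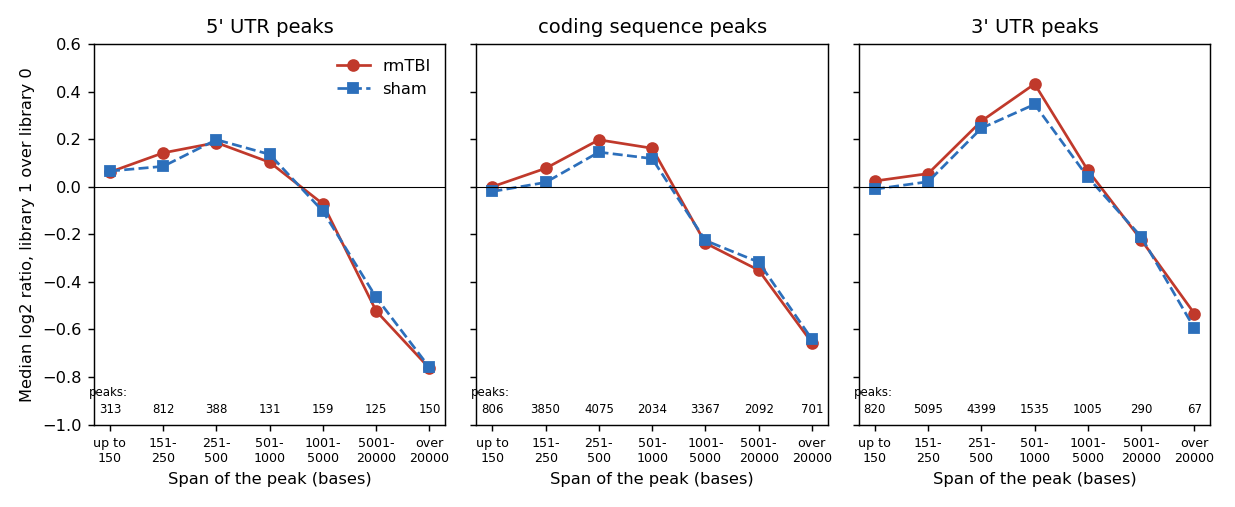
Points give the median log2 ratio of library 1 to library 0 (y axis) for peaks binned by span in bases (x axis), in rmTBI (red) and sham (blue), for 5' UTR, coding and 3' UTR peaks; the number of peaks is printed above each bin. In the 5' UTR panel both lines lie above 0 up to 1000 bases and reach -0.76 over 20000 bases.

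Among single peaks lower in libraries 1, Jarid2, a partner of the Polycomb repressive complex, had 52.9 and 48.98 CPM in libraries 1 of rmTBI and sham, against 163 and 152 CPM in libraries 0 (log2 -1.63, SE 0.10, edgeR adjusted p = 0.00219), over 108849 bases. Tra2b, a splicing regulator, had 19.9 and 19.1 CPM in libraries 1, against 55.2 and 55.9 CPM in libraries 0 (log2 -1.51). Fto, the m6A demethylase, had 69.2 and 70.1 CPM in libraries 1, against 142 and 145 CPM in libraries 0 (log2 -1.04), over 77046 bases. In each the libraries of a number lay close together, whichever group they came from, and the numbers did not overlap. Grip1 (a glutamate receptor scaffold), Tsc22d1 (a transcriptional regulator), Atxn1 (ataxin 1), Sgms1 (a sphingomyelin synthase) and Tulp4 lay between -0.96 and -1.40. The Tsc22d1 and Atxn1 rows overlap rows of another class.

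On the higher side, Ppp1r9b, the spine protein spinophilin, had 985 and 957 CPM in libraries 1 of rmTBI and sham, against 438 and 439 CPM in libraries 0 (log2 1.15, SE 0.07, edgeR adjusted p = 0.00219). Nfe2l1, a stress-response factor, had 104 and 103 CPM in libraries 1, against 47.9 and 48.4 CPM in libraries 0 (log2 1.10). Homer1, a postsynaptic scaffold, had 36.4 and 26.4 CPM in libraries 1, against 11.9 and 9.91 CPM in libraries 0 (log2 1.53, SE 0.19, edgeR adjusted p = 0.00589) at a 182-base peak over its start. A second Homer1 peak, of the same length and 1315 bases downstream, had 29.7 and 24.9 CPM in libraries 1, against 31.3 and 27.9 CPM in libraries 0 (log2 -0.12), so that neighbouring peaks of 1 gene differed. St3gal2, Dtx1, Phb, Srr and Smek2 (Ppp4r3b in RefSeq) had log2 values of 0.66 to 1.27. The Srr row carries the strand opposite to its gene, and the Phb row overlaps a row of another class. Their signal may therefore not come from these 5' UTRs.

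Calls were also counted by position among peaks of at most 1000 bases. Of 498 tested over the gene start 27 were called higher and 8 lower (median log2 0.15), while of 276 that began 1 to 200 bases downstream 1 was called higher and 2 lower (median 0.07). Of 166 that began 201 to 1000 bases downstream 7 were called higher and 5 lower (median 0.09). Of 147 upstream, 5 were called higher and 1 lower (median 0.25), and of 93 that began over 1000 bases downstream 9 were called higher and 10 lower (median 0.06). The difference between positions was not tested.

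Set against the rest of the same gene, the 5' UTR share also differed with number. Of 1089 genes 234 were called (21.5%), 109 with a larger and 125 with a smaller 5' UTR share in libraries 1, by edgeR's quasi-likelihood test with Benjamini-Hochberg adjustment. The count was 119 without sham library 0 and 135 without rmTBI library 0. Genes whose 5' UTR spans were all at most 1000 bases had 95 larger and 31 smaller of 832 (median log2 0.16). Those with a longer span had 14 larger and 94 smaller of 257 (median -0.45). Against 3' UTR peaks alone, 197 of 798 genes were called. Of these 55 had a larger and 142 a smaller share in libraries 1, and the median log2 of the 798 was -0.09. A share can change through the rest as well as through the 5' UTR, and which of them moved was not tested.

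Nfe2l1 had 20.3% and 19.9% of its counts in the 5' UTR in libraries 1 of rmTBI and sham, against 9.04% and 9.29% in libraries 0 (log2 difference 1.32, SE 0.07). Syncrip, an RNA-binding protein whose covered window with GGAC was printed earlier, had 24.6% and 24.3% in libraries 1, against 13.1% and 11.8% in libraries 0 (log2 difference 1.19, SE 0.13). Fnbp1l, a membrane-curving protein and also among the printed windows, had 5.84% and 5.25% in libraries 1, against 2.59% and 2.64% in libraries 0 (log2 difference 1.13). Both peaks are short, of 271 and 151 bases. Pcdh9, a protocadherin, had a log2 difference of 1.10. Its 5' UTR held 3689 and 4245 counts in libraries 1 of rmTBI and sham, against 1579 and 1936 in libraries 0. The rest of Pcdh9 held 60564 and 61324 counts in libraries 1, against 54362 and 61207 in libraries 0, although libraries 1 were deeper.

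In the other direction Sipa1l1, a postsynaptic regulator of Rap, had 37.1% and 36.5% in libraries 1, against 60.9% and 61.9% in libraries 0 (log2 difference -1.45). Brinp2, Ankrd12, Tsc22d1 and Pds5b, a cohesin regulator, had differences of -1.01 to -1.49, and all of these genes had a 5' UTR span of 39400 bases or more. The Tsc22d1 window printed earlier lies under another of its peaks, of 181 bases. For Ppp1r9b the difference of 1.08 rests on its 3597-base span: with spans of at most 1000 bases alone it was -0.48, the opposite direction.

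Levels can be set side by side between peaks only per length. Per kilobase of span, the highest among tested 5' UTR peaks was Gpm6a, a neuronal membrane glycoprotein, with 1519 and 1278 CPM per kilobase in rmTBI libraries 0 and 1, against 1263 and 1063 in sham libraries 0 and 1. Snap25, of the vesicle fusion machinery, followed with 1043 and 734 CPM per kilobase in rmTBI, against 1194 and 704 in sham. App, the amyloid precursor protein, had 638 and 767 CPM per kilobase in rmTBI, against 650 and 762 in sham, at a 62-base peak over its start. These 3 were chosen after their values were seen, and their differences between groups did not pass the test (log2 0.27, -0.10 and -0.01). By whole-peak level the leaders were long rows, with Basp1, a growth cone protein, at 1223 and 1310 CPM in rmTBI, against 957 and 1010 CPM in sham (log2 0.36, SE 0.18, edgeR adjusted p = 1), without overlap; Grip1, Map2, Ppp1r9b, Ptprd, Lrrc4c, Rsrc2 and Magi2 followed.

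The authors' deposited table holds its own comparison, whose direction was set against the counts first. Across 5' UTR peaks, which are not independent replicates, the log2 value of the authors' deposited table followed the ratio of rmTBI library 1 to 0 over the ratio of sham library 1 to 0 (Pearson r = 0.99), and 95.1% of them were no further than 0.1 from that ratio once an offset of -0.07 was removed. Against rmTBI over sham it had r = -0.32. The authors' deposited lists hold 22 peaks of this class among 277 listed as higher (17 genes) and 18 among 146 listed as lower. That is 1.04% of the 5' UTR peaks as higher, against 0.815% of all peaks, and 0.849% as lower, against 0.43% of all, or 1.89% against 1.24% together. In the authors' deposited table the smallest adjusted p of any 5' UTR peak was 0.998.

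The lowest libraries of these peaks were read next. Of the 22 listed as higher 20 had their lowest CPM in rmTBI library 0, and of the 18 listed as lower 16 had it in sham library 0. A library with 10 counts or fewer was present at 15 of the 22 and 8 of the 18, against 332 of all 2120 5' UTR peaks (15.7%). The listed log2 values follow the ratio of library 1 to 0 in rmTBI over that in sham. They have a size of at least 1.005 among the higher and 1.026 among the lower. A low library 0 is therefore in large part fixed by how the lists were made. Mmp15, a membrane-bound metalloproteinase, had 3.53 and 1.52 CPM in rmTBI libraries 1 and 0, against 4.94 and 5.70 CPM in sham libraries 1 and 0, and has log2 1.47 and p = 0.00941 in the authors' deposited table. Epdr1 had 16.0 and 9.40 CPM in rmTBI libraries 1 and 0, against 12.2 and 15.0 CPM in sham libraries 1 and 0, with log2 1.117 in the authors' deposited table. Meis2, among the peaks with more reads in rmTBI, is in the list of lower peaks at log2 -1.03 in the authors' deposited table, so that the same peak has opposite signs in the 2 comparisons. Nkain3, Ppp1r3e and Brox among the higher, and Secisbp2l, Smg5, Srr and Gab1 among the lower, had at most 4.42 CPM in every library. The Brox row carries the strand opposite to its gene.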

How the data were processed

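The deposited table holds raw read counts of each peak in 4 anti-m6A libraries. The authors' lists add a log2 fold change and a p-value per peak, plain and adjusted; the test behind them is unnamed. Per the submitters' processing notes STAR, DESeq2 and GRCm39 were used; no source used here gives the peak caller or counter, and the coordinates follow GRCm38. From the counts, edgeR 4.0.16 (R 4.3.3) was fitted to the whole table with TMM scaling, filterByExpr, the quasi-likelihood test and Benjamini-Hochberg adjustment, calling at 0.05, with treatment or library number as the term. The standard error is the log2 fold change over the square root of F. For the 5' UTR against the rest, counts of 1 row per overlap cluster were summed per gene and class and tested as a class by treatment (or number) term with library as a block. Alternatives included DESeq2 1.42.0, other scalings and filters, a replicate block and leaving out each library. Members and gene lists were chosen with earlier results of these data known. Named genes are the 12 in each direction with the smallest p among peaks whose groups do not overlap, the 8 highest, the 8 in each direction by number, the 6 by the test against the rest, the 8 in each direction of the deposited lists by p (their adjusted p tie), and up to 4 of each list. Exact permutation used SciPy 1.17.1. Some genes that this rule names are not reported here.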

Additional observations from a re-analysis of the deposited data

Results flagged for a closer look

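At 11 of the 16 named 5' UTR peaks from the authors' deposited lists, the log2 ratio of library 1 to library 0, from counts with 0.5 added and scaled by library total, ran in opposite directions in rmTBI and in sham. There is 1 ratio per group, so the difference was not tested. Jmy, an actin nucleator, had a ratio of 4.52 in rmTBI and -1.38 in sham, a difference of 5.90, from 22 and 0 counts in rmTBI libraries 1 and 0 and 16 and 23 in sham libraries 1 and 0. Clk3, a splicing kinase, differed by 2.33 (1.75 in rmTBI, -0.58 in sham), and Plekhm3 by 2.43 (1.79 in rmTBI, -0.64 in sham). On the other side Slc16a14, of the monocarboxylate transporter family, differed by -6.55 (-1.54 in rmTBI, 5.01 in sham), with 0 counts in sham library 0. At Jmy and Slc16a14 the sizes depend on the 0.5 added. Dusp4, a MAP kinase phosphatase, differed by -2.69 (-0.81 in rmTBI, 1.88 in sham) and Extl1 by -2.18 (-0.53 in rmTBI, 1.66 in sham). These 6 peaks had a library with at most 8 counts. At the other 5 the ratio of 1 group lay nearer 0. Mmp15 differed by 1.41 (1.30 in rmTBI, -0.12 in sham) and Epdr1 by 1.08 (0.87 in rmTBI, -0.21 in sham), Meis2 by -1.05 (-0.09 in rmTBI, 0.96 in sham), Smg5 by -1.75 (-0.41 in rmTBI, 1.34 in sham) and Gab1 by -2 (-0.04 in rmTBI, 1.96 in sham). The authors' log2 value follows the same quantity, so these differences are a description of how the lists were made.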

How the results depend on the processing

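For rmTBI against sham, the 0 calls among 5' UTR peaks stayed 0 with library-size or median-ratio scaling, with no filter or at least 10 counts in every library, with 1 row per overlap cluster, and, in alternatives chosen after seeing the data, with spans of at most 1000 bases or without rows overlapped by another strand or class. DESeq2 called 10, and leaving out a library gave 2 to 7 (3 without rmTBI library 0, 2 without rmTBI library 1, 7 without sham library 0, 2 without sham library 1; the lone library is then assumed to vary like the others). With the library number as a block 229 of 2078 were called, 126 higher and 103 lower. The same fit called 3553 of all 33415 peaks. Samples with the same number deviated together (r = 0.446 over all peaks), but the labels do not say that the number pairs the samples. The block changed 0 calls for the 5' UTR against the rest of the gene, and it left the difference in share at 0.170 points.

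For number 1 against 0, the 306 calls became 126 to 180 with a library left out (126 without rmTBI library 0, 139 without rmTBI library 1, 166 without sham library 0, 180 without sham library 1), 651 with the block and 108 with spans of at most 1000 bases. Against the rest of the gene, the 234 calls became 119 to 233 with a library left out (119 without sham library 0, 135 without rmTBI library 0), 133 with the block, 84 with spans of at most 1000 bases and 197 against 3' UTR peaks alone. In the comparison of numbers the block was treatment, and at single peaks that fit called 12736 of all 33415. The Ppp1r9b difference reversed to -0.48 with short spans. The share of counts differed by -0.070 to 0.434 points with a library left out, reversing without rmTBI library 0 (-0.070) and without sham library 1 (-0.094). The share of 5' UTR peaks found in both sets, 45.5%, was 36.9% when the overlap had to reach 50% of each peak. Causes were not tested. Depth limits peaks with few reads: 223 of 2120 had under 10 counts in rmTBI library 0.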
